A study of Mus musculus with 18 samples.

Results

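Dicer1, Drosha, Dgcr8, Xpo5, Tarbp2, Tnrc6a, Tnrc6b and Tnrc6c encode the core of the microRNA pathway. They were taken from the deposited expression table by gene symbol alone: 8 of its 23953 gene rows, and 8 of the 11099 genes that reached at least 1 RPKM in at least 3 libraries. RPKM is a read density, scaled to the length of the transcript and to the mapped reads of the library, so levels of different genes can be set side by side per unit of length.

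MicroRNAs are made in steps. In the nucleus the Microprocessor, formed by the nuclease Drosha and its RNA-binding partner Dgcr8, cuts a hairpin out of the primary transcript, and exportin-5 (Xpo5) carries that hairpin to the cytoplasm. There Dicer1, helped by the double-stranded RNA-binding protein Tarbp2, trims it to a duplex, and 1 strand is loaded into an Argonaute protein. The GW182 proteins Tnrc6a, Tnrc6b and Tnrc6c bind Argonaute and recruit the deadenylases that shorten the tails of target transcripts, and T cells without Dicer or Drosha are known for faulty survival and cytokine control.

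The study measured the RNA of naive CD4 T cells, sorted as CD4+CD25-CD62Lhi cells from C57BL/6 mice of 6 genotypes, with 3 libraries each and 18 in all. Cluster Tg cells over-expressed the entire miR-23, miR-27 and miR-24 cluster, while cells named miR-23 Tg, miR-24 Tg or miR-27 Tg over-expressed 1 member of it. By the labels, DKO cells had lost the a and the b cluster and WT cells carried neither change, although the genotype field adds "Tg" to both names without saying what it stands for there. Over-expression and deletion were both specific to T cells, but the sources used here give neither the promoter or Cre line that drove them nor the age of the mice. The labels do not say that each library came from its own animal, so p-values measure only the spread between these libraries, which may be partly technical. In the table's header 2 of the 3 miR-23 Tg columns carry the same replicate name, and they are called columns 3 and 4 here; none of the 8 genes had the same value in both.

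MicroRNAs that differed between the genotypes are shown with the seed, bases 2 to 8, in capitals. The seed decides which sites in a 3' UTR (the untranslated end of a transcript) can pair with it. The sequences are RefSeq's for the mouse build GRCm38.p6. The b form of miR-23 is not shown, because it had no entry in the source used. The miR-23 and miR-27 seeds both begin with UCACA. The a and b forms of miR-27 share their seed, and mmu-miR-24-3p is the same from either hairpin.
mmu-miR-23a-3p: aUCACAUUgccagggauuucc
mmu-miR-24-3p: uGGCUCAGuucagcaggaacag
mmu-miR-27a-3p: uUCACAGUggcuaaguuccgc
mmu-miR-27b-3p: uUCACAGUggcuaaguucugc

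For each of the 8 genes the 3' UTR of 1 transcript (GENCODE, build GRCm38) was searched on the transcript's own strand. The transcript was the one annotated as principal and coding with the longest 3' UTR, and other isoforms were not searched. Matches were to bases 2 to 8 of each seed, or to bases 2 to 7 followed by A. The motifs were AATGTGA and ATGTGAA for miR-23, CTGAGCC and TGAGCCA for miR-24, and ACTGTGA and CTGTGAA for miR-27, and a site that holds both motifs of a family was counted once. At least 1 match was present in 21.3% of 20738 3' UTRs for miR-23, in 21% for miR-24 and in 24.3% for miR-27. The sites below were chosen to show Dicer1, which has matches for all 3 families, and the single matches of Drosha and Dgcr8. GW182 sites that hold both motifs are shown as well. Tnrc6b has 2 of these for miR-23, and only the one nearer the start of the 3' UTR is printed. Capitals mark the match, and coordinates are of GRCm38, while the expression table was made on mm9.
Dicer1, miR-27, chr12:104690339-104690365, minus strand: aattttttgcACTGTGActataatacc
Dicer1, miR-27, chr12:104689367-104689393, minus strand: tttgaatcatACTGTGAtttacccaga
Dicer1, miR-24, chr12:104690215-104690242, minus strand: tctcagcaggCTGAGCCAgggtagctcg
Dicer1, miR-24, chr12:104688382-104688408, minus strand: agaccctgagCTGAGCCtacagccgca
Dicer1, miR-23, chr12:104688744-104688770, minus strand: cgttcatattATGTGAAatgattaaat
Drosha, miR-27, chr15:12935150-12935176, plus strand: ctttctaagaACTGTGActgtggccca
Dgcr8, miR-23, chr16:18255317-18255343, minus strand: agctgctctcAATGTGActggatatac
Tnrc6a, miR-23, chr7:123193118-123193145, plus strand: ccaatattatAATGTGAAagggtatcta
Tnrc6b, miR-23, chr15:80929736-80929763, plus strand: ctagaaagacAATGTGAAgcaagtacac
Tnrc6b, miR-24, chr15:80934818-80934845, plus strand: ctctctgtgcCTGAGCCAcacagttctt
Tnrc6c, miR-23, chr11:117761450-117761477, plus strand: ccaataccgaAATGTGAAcacttccacg

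The 3' UTRs differed greatly in length. Dicer1, at 3851 bases, held 1 match for miR-23, 2 for miR-24 and 2 for miR-27, while 53%, 48.7% and 58.6% of the UTRs of like length held at least 1 for these families. Drosha had a 3' UTR of only 169 bases with 1 miR-27 match, which 4.21% of UTRs of like length held. Dgcr8, at 1574 bases, had 1 match for miR-23 and none for the other families. Of UTRs of like length 27.6%, 28.2% and 31.4% held at least 1 for miR-23, miR-24 and miR-27. Neither Xpo5, at 1327 bases, nor Tarbp2, at 334 bases, held a match for any of them. In the same order of families, UTRs of like length held one in 24.6%, 25% and 28.2% for Xpo5. For Tarbp2 only 7.2%, 8.87% and 9.07% did. Among the GW182 genes, Tnrc6a (2345 bases) and Tnrc6c (2588 bases) each had 2 miR-23 matches and 1 miR-27 match. At least 1 was held by 38.8% (miR-23) and 43.8% (miR-27) of UTRs of like length for Tnrc6a. For Tnrc6c these shares were 41.2% and 46.1%. Tnrc6b (11609 bases) had 2, 1 and 3 matches for miR-23, miR-24 and miR-27. For a UTR as long as that of Tnrc6b, matches are the rule, with 91.2%, 80.7% and 86% of the 57 UTRs of like length holding one.

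The labels were checked on the hairpins Mir23a, Mir24-2 and Mir27a of the a cluster, whose short transcripts make RPKM values rough. Those of the b cluster are not given here. Mir27a lay between 35500 and 172300 RPKM in cluster Tg libraries, at 216800, 234900 and 27980 RPKM in miR-27 Tg libraries 1 to 3, from 0 to 39.5 RPKM in DKO libraries and from 95.6 to 193.7 RPKM in WT libraries. Mir23a was at 32830 RPKM or more in every cluster Tg and miR-23 Tg library and at 381.7 RPKM or less in the others, with 0, 0 and 76.1 RPKM in DKO libraries 1 to 3 and 279.5, 82.8 and 0 RPKM in WT libraries 1 to 3, and Mir24-2 was at 13890 RPKM or more in every cluster Tg and miR-24 Tg library and listed at 0 in all 3 DKO libraries. All 7 naive CD4 T cell markers were present, with a summed level between 2694 and 3276 RPKM in every library. Absolute sequencing depth is unknown, since the table holds no read counts. In bulk RNA, fewer cells of a type and less RNA per cell cannot be told apart.

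Replicate 3 of miR-27 Tg and replicate 3 of DKO stood apart from the other 16 libraries, and the 8 genes were strongly touched by it. The first principal component (24.8% of the variance) placed them at 122.5 and 51.3, and the other 16 at -20.8 to -0.3. Their mean over 78 ribosomal protein genes was 1372 and 960.4 RPKM, against 243.6 to 540.2 RPKM. Among the 16 this mean also differed by genotype. It was 243.6 to 371.3 RPKM in cluster Tg, 370.2 and 349.7 RPKM in miR-27 Tg, and 416.5 to 434.6 RPKM in miR-24 Tg. In miR-23 Tg it was 433 to 492.2 RPKM, in DKO 519.8 and 460.8 RPKM, and in WT 519.5 to 540.2 RPKM. In miR-27 Tg replicate 3 the median difference from the genotype's other 2 libraries was 1.01 on the log2 scale in the shortest of 4 equal classes of transcript length and -0.82 in the longest, and in DKO replicate 3 it was 0.50 and -0.46. Of the 8 genes only Tarbp2, whose transcript of 1523 bases is the shortest of them, was higher in these libraries than in the other 2 of the genotype (1.81 times in miR-27 Tg and 1.16 times in DKO). The other 7, with transcripts of 4320 to 17332 bases, were all lower, and Tnrc6b, the longest, was at 0.205 and 0.356 of the other 2 libraries. Results are therefore given over all 18 libraries and again over the 16.

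**Figure D1:**
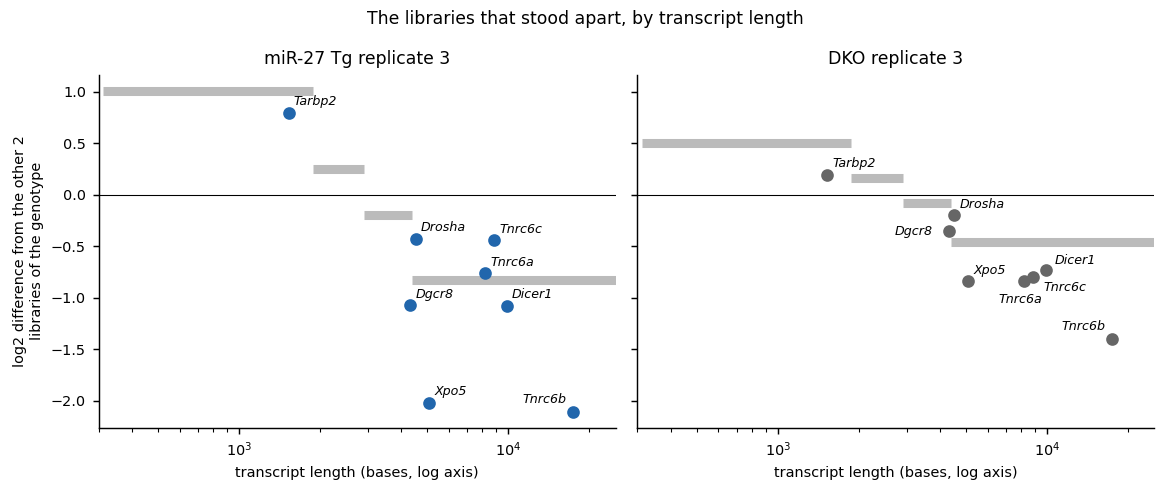
Difference (log2) of miR-27 Tg replicate 3 (left) and DKO replicate 3 (right) from the mean of the other 2 libraries of the genotype, against transcript length in bases on a log axis. Points are the 8 genes, and grey bars are the medians of all genes in 4 length classes. Tarbp2 lies above 0 and the 7 genes with longer transcripts lie below it in both.

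Tnrc6a was the most abundant of the 8, with a median of 44.6 RPKM over the 18 libraries and a mean at the 79.4th percentile of the tested genes. Tarbp2 was the scarcest, with a median of 8.38 RPKM at the 34th percentile, and the other 6 had medians between 16.1 RPKM for Drosha and 30.5 RPKM for Tnrc6c. Over the 16 libraries the highest exceeded the lowest by 1.31-fold for Tnrc6c and by at most 1.71-fold, for Dgcr8.

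**Figure D2:**
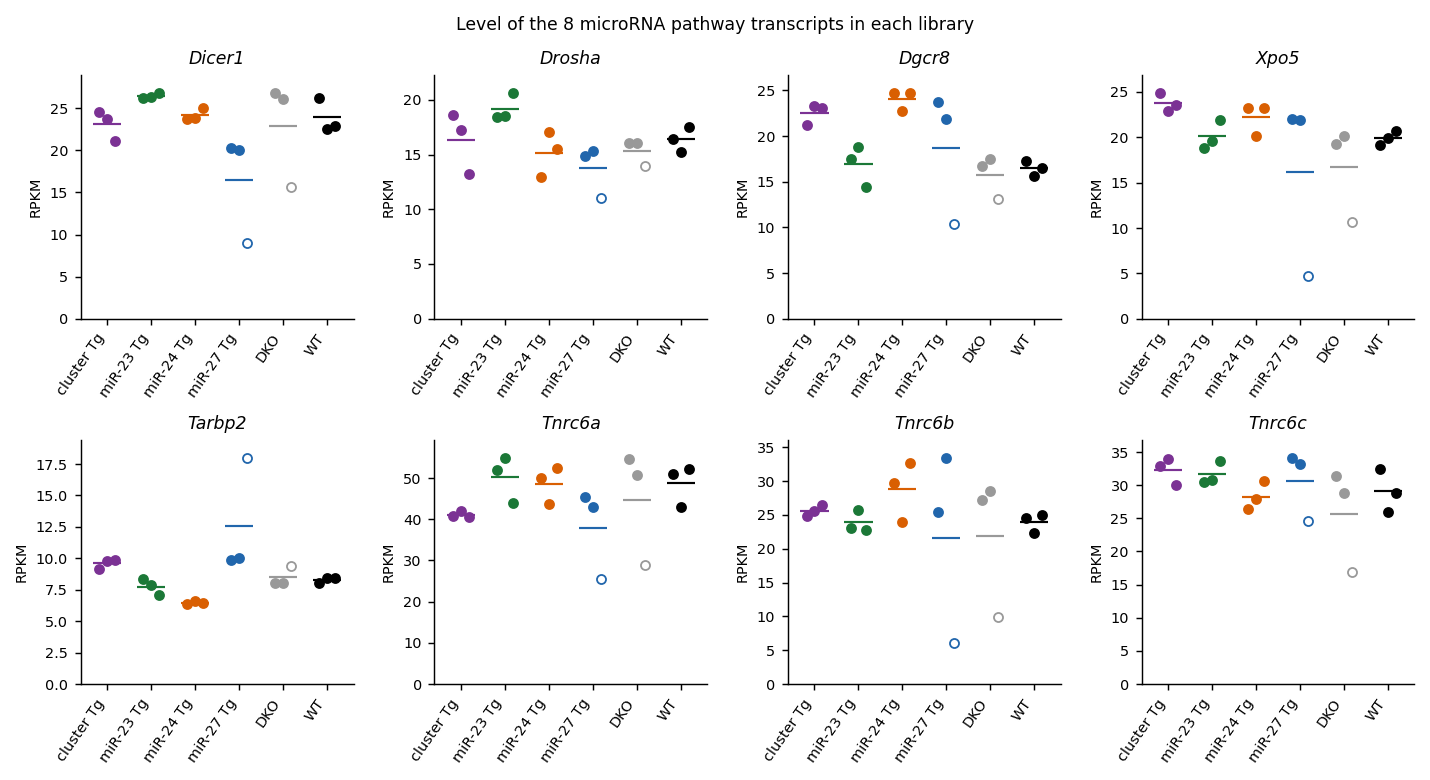
Level in RPKM of each of the 8 transcripts in the 18 libraries, by genotype. Points are libraries, lines are genotype means, and open points are miR-27 Tg replicate 3 and DKO replicate 3. Dgcr8 is above 21 RPKM in the miR-24 Tg, miR-27 Tg and cluster Tg libraries except the open one, and below 19 RPKM in all others.

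Over all 18 libraries none of the 8 genes passed the test in any comparison with WT. The test was limma on log2(RPKM + 1) with Benjamini-Hochberg adjustment over all 11099 genes and a threshold of 0.05. It called 8.48% of all genes in cluster Tg, 0.045% in miR-23 Tg, 3.59% in miR-24 Tg, 8.95% in miR-27 Tg and 0% in DKO. At an unadjusted p under 0.05 there were 0 of the 8 in cluster Tg (20.1% of all genes), 0 in miR-23 Tg (7.63%), 1 in miR-24 Tg (14.4%), 2 in miR-27 Tg (24.7%) and 0 in DKO (0.73%). These 5 comparisons share the WT libraries. The median log2 fold change of the 8 was 0.12 in cluster Tg, 0.04 in miR-23 Tg, 0.01 in miR-24 Tg, -0.32 in miR-27 Tg and -0.13 in DKO, while that of all tested genes was between 0 and 0.03.

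Without the 2 libraries, 3 of the 8 genes passed in cluster Tg against WT (29.1% of all genes), 2 in miR-24 Tg (17.5%) and 3 in miR-27 Tg (20%). None passed in miR-23 Tg (3.89%) or in DKO (0.018%), where 1 of the 8 (23% of all genes) and 0 (2.3%) had an unadjusted p under 0.05. With 8 genes, none of these counts is far from the share of all genes that passed. The median log2 fold change became 0.17 in miR-27 Tg and 0.05 in DKO. The genes that passed are given below in the order of the pathway.

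**Figure D3:**
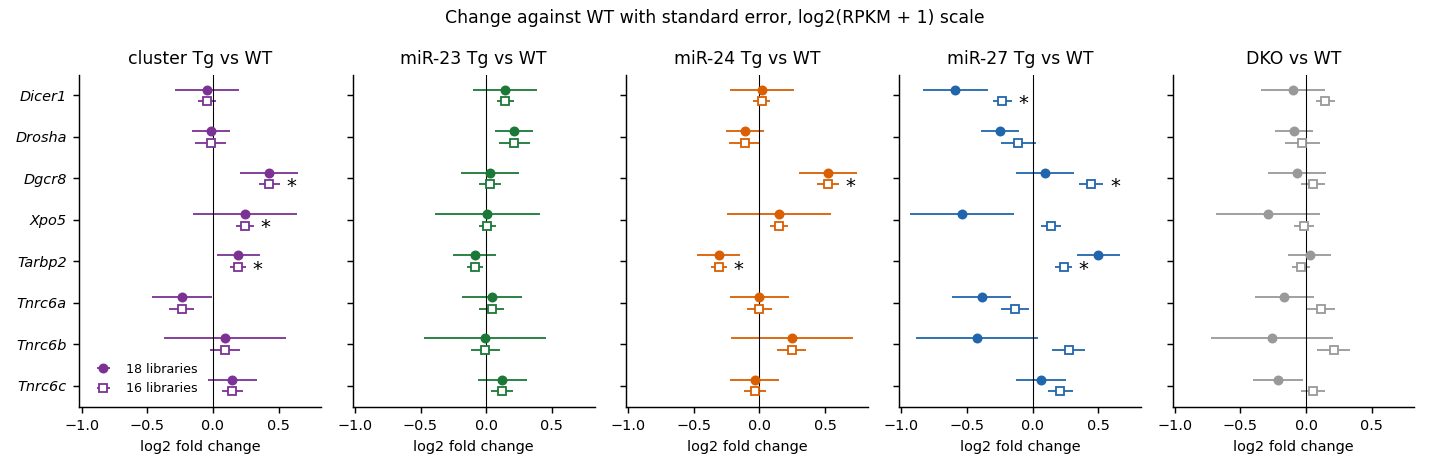
Log2 fold change of each gene against WT on the log2(RPKM + 1) scale, with its standard error, in the 5 other genotypes. Filled circles are from all 18 libraries and open squares from the 16, and an asterisk marks an adjusted p under 0.05. All 8 asterisks stand at open squares: Dgcr8 and Tarbp2 in 3 genotypes, Xpo5 in cluster Tg and Dicer1 in miR-27 Tg.

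Dgcr8, the RNA-binding partner in the Microprocessor, had the widest ratio of highest to lowest level over the 16 libraries. Its level was 21.3, 23.2 and 23.1 RPKM in cluster Tg, 24.7, 22.7 and 24.8 RPKM in miR-24 Tg, and 23.7, 21.9 and 10.3 RPKM in miR-27 Tg libraries 1 to 3. It was 14.5, 17.45 and 18.8 RPKM in miR-23 Tg, 16.7, 17.5 and 13.1 RPKM in DKO, and 17.25, 15.6 and 16.5 RPKM in WT. Leaving out miR-27 Tg replicate 3, the 8 libraries of miR-24 Tg, miR-27 Tg and cluster Tg were at 21.3 to 24.8 RPKM. The 9 of miR-23 Tg, DKO and WT, with DKO replicate 3 kept, were at 13.1 to 18.8 RPKM. This grouping was read from these same values, and the share of all genes that part in this way was not counted. Over the 16, Dgcr8 rose 1.37-fold in cluster Tg (log2 0.43 ± 0.082, standard error, adjusted p = 0.00241), 1.46-fold in miR-24 Tg (0.52 ± 0.082, adjusted p = 0.00148) and 1.39-fold in miR-27 Tg (0.45 ± 0.092, adjusted p = 0.00611). Over all 18 the adjusted p was 0.309 in cluster Tg, 0.282 in miR-24 Tg and 0.8 in miR-27 Tg, and leaving out miR-27 Tg replicate 3 alone gave 0.0297 in miR-27 Tg. Fits of only the 6 libraries compared, none of which stood apart, also called it in cluster Tg (adjusted p = 0.0116, 20.7% of all genes called) and miR-24 Tg (adjusted p = 0.0149, 7.67%). It rose against DKO as well in cluster Tg, by 0.38 ± 0.092 on the log2 scale over the 16 (adjusted p = 0.0103, 27.6% of genes), whereas over the 18 the adjusted p was 0.188 (11.3% of genes). Fits of only the 6 libraries compared that held a library that stood apart did not call Dgcr8. They gave an adjusted p of 0.0696 in cluster Tg against DKO (9.44% of all genes called) and 0.896 in miR-27 Tg against WT (0.387%).

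The genotypes with the higher Dgcr8 level also differed from WT in markers of other cells. The 6 B cell markers summed to 30.4 to 64.0 RPKM in cluster Tg, 8.08 to 33.7 RPKM in miR-23 Tg, 40.6 to 181.7 RPKM in miR-24 Tg, 50.55 to 250.4 RPKM in miR-27 Tg, 8 to 10.9 RPKM in DKO and 6.35 to 9.25 RPKM in WT. The 2 CD8 markers summed to 32.7 to 50.3, 7.95 to 12.25, 29.75 to 46.5, 31.9 to 78.8, 20.4 to 30.3 and 17.55 to 20.6 RPKM in the same order. The 4 myeloid markers, 3 of which reached 1 RPKM in any library, summed to 12.5 to 20.7, 1.28 to 4.14, 6.18 to 21.2, 18.6 to 30.6, 1.92 to 2.73 and 2.08 to 2.68 RPKM. The 3 NK cell markers summed to 35.9 to 45.1 RPKM in miR-24 Tg, against 9.61 to 14.6 RPKM in WT. In the other genotypes this sum overlapped with WT. In miR-24 Tg it was mostly Klrd1, since Ncr1 and Klrb1c reached at most 1.2 and 2.03 RPKM in any library. No marker was at 0 in all 18 libraries. The 3 erythroid markers summed to 1.37 to 10.5 RPKM in cluster Tg, 0.232 to 10.4 RPKM in miR-23 Tg, 4.79 to 58.7 RPKM in miR-24 Tg, 2.99 to 291.7 RPKM in miR-27 Tg, 1.6 to 5.51 RPKM in DKO and 0.446 to 18.8 RPKM in WT, and overlapped between all genotypes and WT. The second principal component, with 14.7% of the variance, parted the same genotypes, with miR-24 Tg, miR-27 Tg and cluster Tg libraries at -43.9 to -6.6 and the rest at 16.4 to 30.2. The part of these differences, and of those in the ribosomal protein mean, in the Dgcr8 result was not tested. Nor was their part in the results on Tarbp2, Xpo5 and Dicer1.

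Drosha, the nuclease of the Microprocessor, passed in no comparison, and in none did it reach an unadjusted p under 0.05. It was at 18.6, 17.2 and 13.2 RPKM in cluster Tg, 12.9, 17.05 and 15.55 RPKM in miR-24 Tg and 14.9, 15.35 and 10.99 RPKM in miR-27 Tg, against 16.45, 15.25 and 17.5 RPKM in WT, and these groups overlapped. Its 3 miR-23 Tg libraries, at 20.7, 18.4 and 18.5 RPKM, all lay above the WT libraries, a difference of 0.21 ± 0.117 on the log2 scale over the 16 that did not pass (adjusted p = 0.289). The ratio of Dgcr8 to Drosha within a library, which is free of library scaling, was 1.41 ± 0.306 in cluster Tg, 0.888 ± 0.166 in miR-23 Tg, 1.61 ± 0.289 in miR-24 Tg, 1.32 ± 0.34 in miR-27 Tg, 1.02 ± 0.073 in DKO and 1.01 ± 0.0566 in WT (SD, n = 3). It was at least 1.14 in every cluster Tg and miR-24 Tg library and at most 1.05 in every WT library, and in miR-27 Tg it was 1.59, 1.42 and 0.94, with the lowest in replicate 3.

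**Figure D4:**
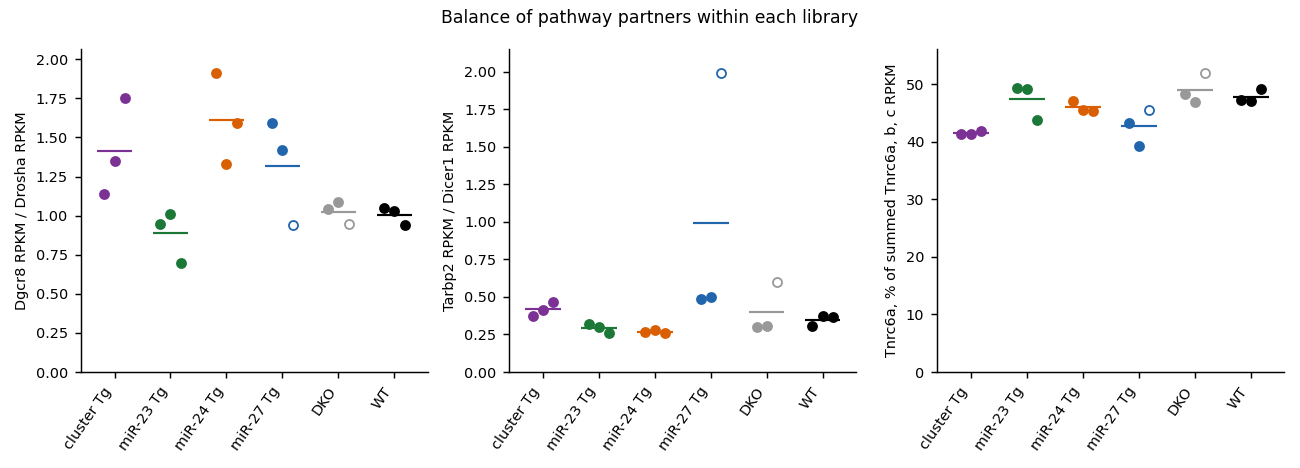
Ratio of Dgcr8 to Drosha (left), ratio of Tarbp2 to Dicer1 (middle) and Tnrc6a as a percent of the summed RPKM of Tnrc6a, Tnrc6b and Tnrc6c (right) in each library. Points are libraries, lines are genotype means, and open points are miR-27 Tg replicate 3 and DKO replicate 3. Cluster Tg and miR-24 Tg lie above WT on the left. Tnrc6a takes 41.3 to 41.8% in cluster Tg and 39.2 to 45.6% in miR-27 Tg, against 47.0 to 49.2% in WT.

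Xpo5, the exporter of hairpins, was at 24.9, 22.9 and 23.5 RPKM in cluster Tg and at 19.1, 19.95 and 20.7 RPKM in WT, so that the groups did not overlap. Over the 16 libraries it rose by 0.245 ± 0.068 on the log2 scale in cluster Tg (adjusted p = 0.0182), and over only the 6 libraries compared the adjusted p was 0.038. Over all 18, where miR-27 Tg replicate 3 had 4.68 RPKM and DKO replicate 3 had 10.6 RPKM, the standard error of the same difference was 0.397 and the adjusted p was 0.856. In miR-24 Tg the level was 23.2, 20.1 and 23.2 RPKM, which overlapped with WT (0.15 ± 0.068 over the 16, adjusted p = 0.162). Against DKO, Xpo5 was higher in cluster Tg by 0.26 ± 0.076 over the 16 (adjusted p = 0.0251), and over the 18 the adjusted p was 0.475. A fit of only the 6 libraries compared, with DKO replicate 3 among them, did not call Xpo5 (adjusted p = 0.22).

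Tarbp2, the partner of Dicer, was the only gene of the 8 called over all 18 libraries. Its level was 9.15, 9.81 and 9.89 RPKM in cluster Tg, 7.05, 8.36 and 7.85 RPKM in miR-23 Tg, 6.37, 6.59 and 6.48 RPKM in miR-24 Tg, 9.83, 10 and 17.99 RPKM in miR-27 Tg, 8.05, 8.05 and 9.36 RPKM in DKO, and 7.999, 8.43 and 8.41 RPKM in WT. The 3 miR-24 Tg libraries were the lowest of all 18, and every cluster Tg and miR-27 Tg library was above every WT library. The F test across the 6 genotypes called it over the 18 (adjusted p = 0.0318, 19% of all genes called) and called Tarbp2, Dgcr8, Dicer1 and Xpo5 over the 16 (adjusted p = 0.000342, 0.000736, 0.0105 and 0.0372, with 50.9% of all genes called). Its call over the 18 ended when any 1 of the cluster Tg or miR-24 Tg libraries, miR-23 Tg replicate 1 or column 4, or WT replicate 1 or 2 was left out, with an adjusted p of up to 0.0758. In miR-27 Tg it was 1.95-fold higher than in miR-24 Tg over the 18 (log2 0.81 ± 0.164, adjusted p = 0.00544, 13% of all genes) and 1.53-fold higher over the 16 (0.545 ± 0.067, adjusted p = 0.000174, 26.8%). A fit of only these 6 libraries, with miR-27 Tg replicate 3 among them, did not call it (adjusted p = 0.269, 0.045%).

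Against WT, the change in Tarbp2 had opposite signs in the genotypes. Over the 16 libraries it rose by 0.19 ± 0.06 on the log2 scale in cluster Tg (adjusted p = 0.0289) and by 0.235 ± 0.067 in miR-27 Tg (adjusted p = 0.0276), and it fell by 0.31 ± 0.06 in miR-24 Tg (adjusted p = 0.0043). Over the 18 the adjusted p was 0.621 in cluster Tg, 0.441 in miR-24 Tg and 0.0769 in miR-27 Tg, where it was 0.033 without miR-27 Tg replicate 1 and 0.0391 without replicate 2. Over only the 6 libraries compared, Tarbp2 was called in miR-24 Tg (adjusted p = 0.0426) but not in cluster Tg (0.086). Nor was it called in miR-27 Tg, with replicate 3 among the 6 (0.513). Cluster Tg, which over-expresses miR-24 together with the others, was 1.48-fold higher than miR-24 Tg (0.50 ± 0.06 over the 16, adjusted p = 0.000432, 15.5% of all genes; 0.50 ± 0.164 over the 18, adjusted p = 0.15, 2.22%). Cluster Tg and miR-27 Tg differed by -0.04 ± 0.067 over the 16 (adjusted p = 0.739, 11.4% of all genes) and by -0.31 ± 0.164 over the 18 (adjusted p = 0.267, 3.79%).

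Dicer1, the nuclease that cuts the hairpin, was lower in miR-27 Tg than in WT in every library: 20.3, 20.1 and 9.05 RPKM, against 26.3, 22.6 and 22.9 RPKM. The difference was -0.23 ± 0.073 on the log2 scale over the 16 libraries (adjusted p = 0.0427) and -0.59 ± 0.245 over the 18, where it did not pass (adjusted p = 0.156). A fit of only the 6 libraries compared, with replicate 3 among them, did not call Dicer1 either (adjusted p = 0.546, 0.387% of all genes). Over the 16 it also fell against miR-24 Tg, by 0.25 ± 0.073 (adjusted p = 0.0237; 0.117 over the 18). Dicer1 is the gene printed above with 2 miR-27 matches, and 58.6% of the UTRs of like length hold at least 1. Whether any of the matches in its 3' UTR has a part in its level was not tested. In cluster Tg, which over-expressed miR-27 as well, Dicer1 was at 24.6, 23.8 and 21.1 RPKM and did not pass against WT (-0.045 ± 0.065 over the 16, adjusted p = 0.639), nor did cluster Tg differ from miR-27 Tg past the threshold (0.185 ± 0.073, adjusted p = 0.122). In miR-24 Tg, with 2 miR-24 matches in the transcript, it was at 23.7, 23.8 and 25.1 RPKM (0.02 ± 0.065, adjusted p = 0.88). Its highest mean was in miR-23 Tg, at 26.5 ± 0.308 RPKM (SD, n = 3), where all 3 libraries lay above the highest WT library, although the difference did not pass (0.14 ± 0.065 over the 16, adjusted p = 0.207). In DKO, labelled as lacking both clusters, it was at 26.9, 26.2 and 15.6 RPKM and overlapped with WT.

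At the level of transcripts, the ratio of Tarbp2 to Dicer1 RPKM was 0.372, 0.413 and 0.469 in the cluster Tg libraries and 0.269, 0.277 and 0.258 in miR-24 Tg. It was 0.484, 0.498 and 1.99 in miR-27 Tg, against 0.304, 0.373 and 0.367 in WT. The value of 1.99 is from miR-27 Tg replicate 3, which stood apart by transcript length. All miR-24 Tg libraries were below and all miR-27 Tg libraries above the WT libraries, while cluster Tg overlapped with WT by 1 library. The mean in miR-23 Tg was 0.293 ± 0.028 (SD, n = 3).

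The GW182 genes gave no call against WT in any genotype, over the 18 or the 16 libraries. At an unadjusted p under 0.05, limma gave none of the 3 over the 18, and over the 16 it gave Tnrc6a as 1 of 3 in cluster Tg, where 39.7% of all genes were under it, and Tnrc6c as 1 of 3 in miR-27 Tg, where 33.6% were. Tnrc6a was at 40.7, 41.9 and 40.55 RPKM in cluster Tg, below all 3 WT libraries at 51.0, 42.9 and 52.3 RPKM, with a log2 difference of -0.24 ± 0.095 over the 16 (adjusted p = 0.0829). Against DKO, where it was at 54.7, 50.7 and 29.0 RPKM, it fell in cluster Tg by 0.35 ± 0.106 over the 16 (adjusted p = 0.0287), and over the 18 the difference was -0.07 ± 0.227 (adjusted p = 0.896). As a share of the summed RPKM of the 3 GW182 genes, Tnrc6a took 41.5 ± 0.268% in cluster Tg, 47.4 ± 3.19% in miR-23 Tg, 46.0 ± 0.963% in miR-24 Tg, 42.7 ± 3.26% in miR-27 Tg, 49.0 ± 2.6% in DKO and 47.8 ± 1.22% in WT (SD, n = 3). The cluster Tg libraries, at 41.3 to 41.8%, all lay below the WT libraries, at 47.0 to 49.2%. So did the miR-27 Tg libraries, at 43.2, 39.2 and 45.6%, with a mean of 41.2% without replicate 3. How often shares of other genes part in this way was not counted. The summed level was 99.0 ± 2.29 RPKM in cluster Tg and 101.8 RPKM on average in WT.

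Tnrc6b was the most variable GW182 gene, chiefly through the libraries that stood apart: it was at 25.4, 33.4 and 6.02 RPKM in miR-27 Tg and at 27.2, 28.6 and 9.93 RPKM in DKO, against 24.5, 22.4 and 25.1 RPKM in WT. Over the 16 it was higher in the miR-27 Tg libraries by 0.27 ± 0.126 on the log2 scale without passing (adjusted p = 0.149), and in miR-24 Tg, at 29.8, 23.95 and 32.7 RPKM, by 0.245 ± 0.112 (adjusted p = 0.156). Its mean share of the GW182 sum was 25.9% in cluster Tg, 22.6% in miR-23 Tg, 27.1% in miR-24 Tg and 23.6% in WT. In miR-27 Tg it was 21.8% with replicate 3, which had 10.7%, and 27.4% without it. In DKO it was 22.7% with replicate 3, which had 17.8%, and 25.2% without it. Tnrc6c had the smallest ratio of highest to lowest level of the 8 over the 16 libraries, at 25.96 to 34.1 RPKM. It was at 32.85, 33.97 and 30.05 RPKM in cluster Tg, 34.1, 33.3 and 24.5 RPKM in miR-27 Tg and 32.5, 25.96 and 28.9 RPKM in WT.

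In the order of genotype means, most neighbours overlapped in their libraries for every gene. The exceptions were miR-23 Tg above miR-24 Tg for Dicer1, miR-23 Tg above WT for Drosha, and miR-23 Tg above miR-24 Tg, the lowest genotype, for Tarbp2. Counting genes whose libraries did not overlap with WT at all, 3 of the 8 were higher and 1 lower in cluster Tg (22.1% and 20.6% of all genes), 2 higher in miR-23 Tg (15.2%), and 1 higher and 1 lower in miR-24 Tg (17.5% and 16%). In miR-27 Tg 1 was higher and 1 lower over the 18 (15% and 12.3%), and 5 higher and 1 lower with replicate 3 left out (27.1% and 24.8%). In DKO none was (2.44% higher and 2.52% lower over all genes), and 1 was higher with replicate 3 left out (7.94%).

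The wider pathway was followed through 55 further genes in 6 lists, of which 52 were tested. Ago4, Lin28a and Lin28b were below the filter. Over all 18 libraries, 0 of the 52 were called against WT in cluster Tg (8.48% of all genes), miR-23 Tg (0.045%) or DKO (0%). In miR-24 Tg 1 was lower (1.26% of all genes lower), and in miR-27 Tg 2 were higher and 1 lower (5.77% and 3.18%). Over the 16 the counts were 5 higher and 5 lower in cluster Tg (15.6% and 13.5%) and 4 higher and 6 lower in miR-24 Tg (9.38% and 8.07%). They were 8 higher and 3 lower in miR-27 Tg (11.4% and 8.58%). In miR-23 Tg and DKO the count was 0 (3.89% and 0.018% of all genes in either direction). At an unadjusted p under 0.05, limma gave 5 of the 52 in cluster Tg (20.1% of all genes), 0 in miR-23 Tg (7.63%), 5 in miR-24 Tg (14.4%), 9 in miR-27 Tg (24.7%) and 0 in DKO (0.73%) over the 18. Over the 16 it gave 16 in cluster Tg (39.7%), 7 in miR-23 Tg (23%), 15 in miR-24 Tg (32%), 16 in miR-27 Tg (33.6%) and 1 in DKO (2.3%). By list, over the 16, the 13 deadenylation genes gave 3 higher and 4 lower in cluster Tg, 3 lower in miR-24 Tg, and 3 higher and 1 lower in miR-27 Tg. The 8 tested Argonautes and their partners gave 1 higher in cluster Tg, 1 higher and 2 lower in miR-24 Tg, and 2 higher in miR-27 Tg. Among the 3 export and dicing partners 1 was higher in cluster Tg, 1 in miR-24 Tg and 2 in miR-27 Tg, and among the 8 nuclear processing partners 1 was lower in cluster Tg, 1 lower in miR-24 Tg and 1 higher in miR-27 Tg. The 9 tested tailing and turnover genes and the 11 decapping and decay genes each gave 0 in cluster Tg, 1 higher in miR-24 Tg and 1 lower in miR-27 Tg. Of the Argonautes, Ago2, the one that can cut targets, had a median of 38.1 RPKM, Ago1 23.9 RPKM, Ago3 7.35 RPKM and Ago4 0.0239 RPKM.

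Mov10, an RNA helicase that binds Argonaute, moved in opposite directions. It averaged 28.7 ± 3.61 RPKM in miR-27 Tg and 12.2 ± 1.61 RPKM in miR-24 Tg, against 18.75 ± 1.21 RPKM in WT (SD, n = 3). It rose by 0.58 on the log2 scale in miR-27 Tg (adjusted p = 0.0082) and fell by 0.58 in miR-24 Tg (adjusted p = 0.0151), over all 18 libraries. Prkra, a double-stranded RNA-binding partner of Dicer like Tarbp2, averaged 5.12 ± 1.99 RPKM in miR-27 Tg and 2.31 ± 0.305 RPKM in WT (log2 0.84, adjusted p = 0.0153). Its highest miR-27 Tg level, 7.2 RPKM, was in replicate 3. With the 16 libraries the miR-27 Tg mean was 4.08 RPKM (log2 0.60, adjusted p = 0.0247). Over the 16 libraries Prkra also rose in cluster Tg, to 4.17 ± 0.57 RPKM (0.64, adjusted p = 0.0072), and in miR-24 Tg, to 4.19 ± 0.907 RPKM (0.64, adjusted p = 0.0125), where Tarbp2 was lower. Over all 18 neither of these passed, with an adjusted p of 0.0564 for Prkra in the cluster Tg libraries and 0.0933 in those of miR-24 Tg. Cnot7, a deadenylase that the GW182 proteins recruit, fell to 29.2 ± 3.09 RPKM in miR-27 Tg, against 39.1 ± 3.25 RPKM in WT (-0.41, adjusted p = 0.0389).

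**Figure D5:**
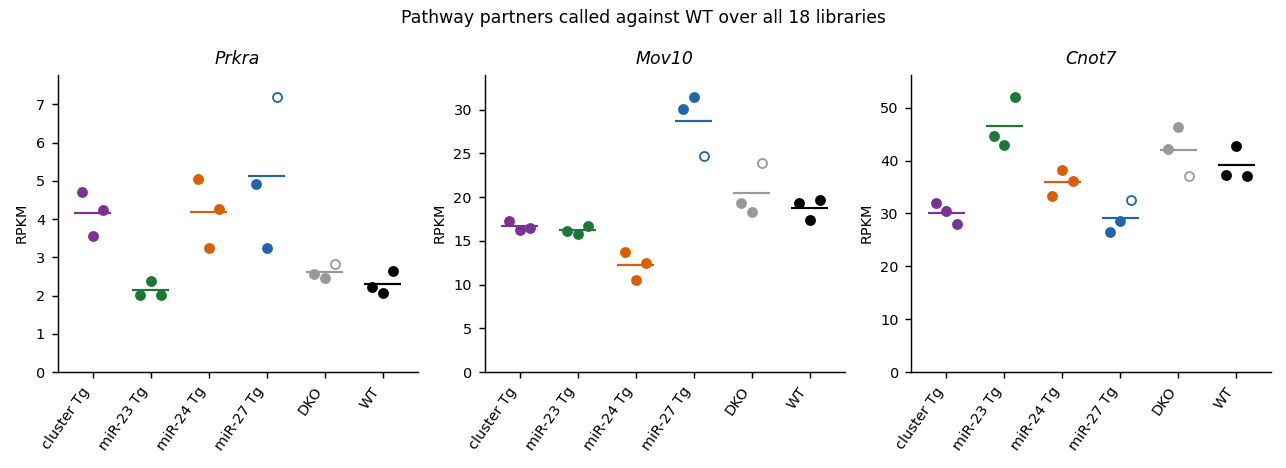
Level in RPKM of Prkra, Mov10 and Cnot7, the pathway partners called against WT over all 18 libraries, by genotype. Points are libraries, lines are genotype means, and open points are miR-27 Tg replicate 3 and DKO replicate 3. Mov10 averages 28.7 RPKM in miR-27 Tg and 12.2 RPKM in miR-24 Tg, against 18.75 RPKM in WT.

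Further calls over the 16 libraries, at most 6 in each genotype by smallest p, were as follows, and none of them was made over all 18. In cluster Tg, Ago1 rose to 28.25 ± 0.668 RPKM, against 23.5 ± 1.03 RPKM in WT (adjusted p = 0.00495). The deadenylation genes Cnot6l and Rqcd1 rose there too (0.305 and 0.25), and Cnot7 and the poly(A)-binding protein Pabpc1 fell (-0.36 and -0.42). In miR-24 Tg, Cnot6, a catalytic deadenylase, fell to 27.8 ± 1.32 RPKM, against 40.8 ± 2.47 RPKM in WT (adjusted p = 0.000689). The nuclease Snd1 and Pabpc1 also fell (-0.23 and -0.42), and the uridylyltransferase Zcchc11 rose (0.35). In miR-27 Tg, with replicate 3 left out, Cnot6 rose to 53.0 ± 2.79 RPKM (adjusted p = 0.00832, n = 2 in miR-27 Tg, limma) and Ago1 to 30.6 ± 1.09 RPKM (adjusted p = 0.00213). The RNA editor Adar rose as well (0.43), and the poly(A) ribonuclease Parn fell (-0.51).

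The genes most like Tarbp2 and Dgcr8, the pair with the smallest p in the F test over all 18 libraries, were found by Pearson's r of log2(RPKM + 1) over those libraries. For Tarbp2 they were Chaf1b (r = 0.952), Gnai2 (0.948), Cdk4 (0.942), Kcnn4 (0.942) and R3hdm4 (0.941), and over the 16 libraries r was between 0.828 and 0.874. For Dgcr8 they were Ldlrad4 (r = 0.961), Arrb1 (0.945), Vcpip1 (0.941), Slc5a3 (0.937) and Zfp280b (0.936), and over the 16 it was between 0.864 and 0.933. The points share their libraries and genotypes, and these values are a description.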

How the data were processed

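Libraries of total RNA (miRNeasy, TruSeq, HiSeq, per the labels' protocols) were deposited by the authors as 1 table of RPKM values with 23953 gene rows and 18 library columns. STAR 2.2.0c, HOMER and the build mm9 are named per the submitters' processing notes; the sources used here do not give gene models, strand or the handling of shared reads. The table holds no counts. Where a symbol occurred again, its row of lower mean was dropped (2 rows). The 11099 genes that reached 1 RPKM in 3 or more libraries were tested with limma 3.58.1 (R 4.3.3) on log2(RPKM + 1), with genotype as the only term and 1 spread per gene over all libraries; fold changes of low genes are understated on that scale. Tests of 3 against 3 libraries cannot give an exact permutation p under 0.1, so none is given. The script was tested on simulated data. All 8 genes are named; other pathway genes were counted by list, and those called against WT were named, at most 6 per comparison by smallest p. Members, lists and markers were chosen with earlier results of these data known. Alternatives were another pseudocount, no filter, 2 scalings, fewer libraries, a replicate block and leaving out single libraries. Transcript lengths (known for 88.3% of tested genes) and 3' UTRs came from GENCODE on GRCm38; no coordinate was moved between builds.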

Additional observations from a re-analysis of the deposited data

How the results depend on the processing

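The pseudocount of 0.1, no filter, quantile and median-ratio scaling changed no call of the 8 genes. Without the 2 libraries that stood apart the number called against WT became 3 in cluster Tg (29.1% of all genes), 3 in miR-27 Tg (20%) and 2 in miR-24 Tg (17.5%). It became 4 in cluster Tg against DKO (27.6%) and 1 in cluster Tg against miR-24 Tg (15.5%). In miR-27 Tg against miR-24 Tg it became 2 (26.8%), and in the F test 4 (50.9%). Counts over all genes moved with it, for example 3225 against 941 called in cluster Tg against WT. With only the 6 libraries compared, 2 were called against WT in cluster Tg (20.7% of all genes) and 2 in miR-24 Tg (7.67%). In cluster Tg against miR-24 Tg 1 was called (4.12%), and in miR-27 Tg against miR-24 Tg 0 (0.045%). None was called in cluster Tg against DKO (9.44%) or in miR-27 Tg against WT (0.387%). The 16 libraries had given 4 and 3 there, and these fits of 6 hold a library that stood apart. The remaining comparisons gave 0 as well: miR-23 Tg (0.126%) and DKO (0.036%) against WT, and cluster Tg against miR-27 Tg (0.045%). Leaving out 1 library gave 0 to 2 calls in the F test (1575 to 3809 of all 11099 genes), 0 to 1 in miR-27 Tg against WT (533 to 1223 genes), 1 in miR-27 Tg against miR-24 Tg (847 to 1925 genes), and 0 in the other comparisons (0 to 901 genes). The Tarbp2 F test ranged over these from an adjusted p of 0.00148 without miR-27 Tg replicate 3 to 0.0758 without miR-24 Tg replicate 1. It was above 0.05 without any 1 of the cluster Tg or miR-24 Tg libraries, miR-23 Tg replicate 1 or column 4, or WT replicate 1 or 2. In miR-27 Tg against WT, Tarbp2 was called without replicate 1 (adjusted p = 0.033) or replicate 2 (0.0391), and Dgcr8 without replicate 3 (0.0297). The cause was not tested.

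The replicate numbers were not treated as pairing the libraries, because the labels tie them to nothing and not every pair correlated above 0.1: over 30 pairs with the same number the correlation of deviations ran from -0.111 to 0.58 (median 0.081, against -0.038 for other numbers), and 10 of 15 libraries correlated best with their own number, a hint from the data and not from the design. With the replicate block, fitted without the miR-23 Tg columns that show no number, 0 of the 8 genes were called in the F test (Tarbp2 adjusted p = 0.0568). Tarbp2 kept its call in miR-27 Tg against miR-24 Tg (adjusted p = 0.0112). The share of all genes called with the block is not given here.

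Signs turned only for differences that passed the test in neither setting. Quantile scaling gave log2 differences against WT of -0.027 for Xpo5 and -0.012 for Tnrc6a in miR-23 Tg, and 0.028 for Tnrc6a in miR-24 Tg. Without the 2 libraries they were 0.136 for Xpo5 and 0.273 for Tnrc6b in miR-27 Tg, and in DKO 0.146 for Dicer1, 0.053 for Dgcr8, -0.036 for Tarbp2, 0.115 for Tnrc6a, 0.21 for Tnrc6b and 0.052 for Tnrc6c. In cluster Tg against DKO they were -0.191 for Dicer1 and -0.117 for Tnrc6b, and against miR-27 Tg -0.016 for Dgcr8, -0.101 for Tnrc6a, -0.18 for Tnrc6b and -0.061 for Tnrc6c. In miR-27 Tg against miR-24 Tg they were 0.003 for Drosha and 0.029 for Tnrc6b. With the replicate block the values in miR-23 Tg against WT were -0.001 for Dicer1, -0.279 for Dgcr8, -0.068 for Xpo5 and -0.285 for Tnrc6a.

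Leaving out single libraries also turned some signs. Of the values below, the highest for Dgcr8 in miR-27 Tg against WT, without replicate 3, has the sign of the value over all 18 and was called. In cluster Tg against WT the log2 difference ran from -0.088 to 0.021 for Dicer1 and -0.11 to 0.12 for Drosha. In miR-23 Tg against WT the log2 difference ran from -0.06 to 0.026 for Tnrc6b, -0.047 to 0.131 for Dgcr8, -0.044 to 0.135 for Tnrc6a and -0.05 to 0.056 for Xpo5. In miR-24 Tg against WT the log2 difference ran from -0.112 to 0.044 for Tnrc6c, -0.088 to 0.074 for Tnrc6a and -0.019 to 0.086 for Dicer1. In miR-27 Tg against WT the log2 difference ran from -0.116 to 0.447 for Dgcr8, -0.019 to 0.21 for Tnrc6c, -0.874 to 0.136 for Xpo5 and -0.874 to 0.273 for Tnrc6b. In DKO against WT the log2 difference ran from -0.227 to 0.146 for Dicer1, -0.14 to 0.053 for Dgcr8, -0.036 to 0.062 for Tarbp2, -0.331 to 0.115 for Tnrc6a, -0.508 to 0.21 for Tnrc6b and -0.376 to 0.052 for Tnrc6c. In cluster Tg against DKO the log2 difference ran from -0.018 to 0.212 for Drosha, -0.352 to 0.094 for Tnrc6a, -0.191 to 0.182 for Dicer1 and -0.117 to 0.602 for Tnrc6b. In cluster Tg against miR-24 Tg the log2 difference ran from -0.008 to 0.232 for Drosha. In cluster Tg against miR-27 Tg the log2 difference ran from -0.016 to 0.547 for Dgcr8, -0.101 to 0.299 for Tnrc6a, -0.18 to 0.967 for Tnrc6b and -0.061 to 0.169 for Tnrc6c. In miR-27 Tg against miR-24 Tg the log2 difference ran from -0.243 to 0.003 for Drosha and -1.118 to 0.029 for Tnrc6b.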
